A study of Mus musculus with 6 samples.

Results

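The genes described here are the digestive enzymes of gastric chief cells, the vitamin B12 carrier Cblif that mouse chief cells also make, and the transcription factor Bhlha15. They were chosen by symbol: Pgc, Pga5, Chia1, Cblif, Bhlha15 and Lipf, 6 of the 23550 symbols in a table of FPKM values (fragment counts scaled to gene length and library size). The values come from RNA of whole stomach tissue in 6 libraries, 3 of a saline group and 3 of a group dosed with Riclin, a soluble polysaccharide fibre made by a bacterium. Riclin was given at 20 mg/kg by continuous gavage for 14 days, and the label of the saline libraries carries the same dose. Not given in the sources used here are the strain, sex and age of the mice, and whether each library is 1 animal. An ethanol injury model belonged to another experiment of the study, and whether these mice received ethanol is likewise not given.

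Chief cells sit at the base of the glands of the gastric corpus and store pepsinogens in zymogen granules, which they release on cholinergic and hormonal signals. Acid in the lumen turns pepsinogens into active pepsins. Bhlha15, also called Mist1, is a basic helix-loop-helix factor that builds the secretory apparatus of chief cells, pancreatic acinar cells and plasma cells. Chief cells arise from mucous neck cells as these migrate toward the gland base.

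Stretches before the starts of Pgc, Cblif and Chia1 are shown because these 3 genes had the largest FPKM of the 6 and yet differed in how far the Riclin and saline groups lay apart. They are RefSeq sequences on GRCm38.p6, all on the plus strand, at chr17:47726592-47726841 for Pgc, chr19:11747309-11747553 for Cblif and chr3:106113327-106113356 for Chia1. The Chia1 stretch is kept to 30 bases because it and the bases around it lie inside the Chia1 gene of another annotation, GENCODE M21. Capitals mark TATAAA and the E-box CANNTG, the letters that basic helix-loop-helix factors bind.
Pgc: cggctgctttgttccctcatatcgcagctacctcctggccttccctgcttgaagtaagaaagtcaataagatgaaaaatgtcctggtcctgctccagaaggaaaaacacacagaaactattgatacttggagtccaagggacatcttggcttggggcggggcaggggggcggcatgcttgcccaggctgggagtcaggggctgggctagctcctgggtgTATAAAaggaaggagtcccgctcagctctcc
Cblif: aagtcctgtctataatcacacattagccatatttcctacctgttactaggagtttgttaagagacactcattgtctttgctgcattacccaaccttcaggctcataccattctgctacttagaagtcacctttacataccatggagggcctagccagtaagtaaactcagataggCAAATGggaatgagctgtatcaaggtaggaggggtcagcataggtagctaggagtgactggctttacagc
Chia1: gcactCAGGTGtTATAAAaagcCATTTGag

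Both strands of the 250 bases before each RefSeq start were searched. For Chia1, Lipf and Cblif part of these bases lies past the gene start in GENCODE M21. TATAAA was found in Pgc, with its first base 31 bases before the start, and in Chia1, 43 bases before it, and 12.4% of 32851 promoter windows of that length hold it. CANNTG was found 3 times in Chia1, 3 times in Bhlha15, 4 times in Lipf, once in Cblif and 0 times in Pgc. At least 1 CANNTG is found in 66.2% of all windows and at least 3 in 12.2%, so its presence is common. CATATG, a form of the E-box bound by Bhlha15, was found in 0 of the 5 members with a RefSeq promoter and in 3.46% of all windows. Pga5 had no such entry.

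The members lie on 4 chromosomes and are all annotated as protein-coding in GENCODE M21 on GRCm38, with no other annotated gene overlapping them. Pgc spans 47726842 to 47734482 on chromosome 17 (plus strand) and Chia1 spans 106113229 to 106132120 on chromosome 3 (plus). Cblif, listed there under its older symbol Gif, spans 11747554 to 11763447 on chromosome 19 (plus). Pga5 lies on the same chromosome from 10668956 to 10678071 (minus), and so does Lipf, from 33961187 to 33976810 (plus). Bhlha15 spans 144190286 to 144194441 on chromosome 5 (plus).

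Library totals implied by the FPKM values ran from 30884067 to 40050267 reads. Riclin replicate 3 stood apart through its low level of pancreatic acinar transcripts. The 22 acinar markers in the table summed to 165 FPKM there, to 35189 in saline replicate 1, and to between 92360 and 144697 in the other 4 libraries. Of the 6 members, 5 were above 10 FPKM in every library, while Lipf was at or near 0. Because these genes define the chief cell label, their levels are no separate test of it.

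All 5 members with measurable levels had higher means in Riclin than in saline, as did 61.3% of all tested genes on the log2 scale, and none of them passed the adjusted threshold in limma. Chia1 lay furthest from saline, at 2.32 times the saline mean, followed by Cblif at 1.51 times, Pgc at 1.45, Pga5 at 1.41 and Bhlha15 at 1.28. In Chia1 and Cblif every Riclin library lay above every saline library. By limma on log2(FPKM + 1), 0 of the 5 tested members had a Benjamini-Hochberg adjusted p under 0.05, as did 0.0% of all 11738 tested genes (0 genes). At an unadjusted p under 0.05, 2 of the 5 were found, both higher in Riclin, against 4.07% of all tested genes higher and 5.9% in either direction. That count of 2 was 1 when saline replicate 2, saline replicate 4, Riclin replicate 2 or Riclin replicate 4 was left out, 3 without saline replicate 1 or with no intensity trend, 4 without both saline replicate 1 and Riclin replicate 3, and 0 with no filter on low values. Groups that did not overlap, with Riclin higher, were likewise seen in 2 of 5 members and in 8.14% of all tested genes. The median log2 fold change was 0.59 over the 5 members and 0.040 over all tested genes. In bulk tissue more cells of a type and more RNA per cell cannot be told apart.

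**Figure D1:**
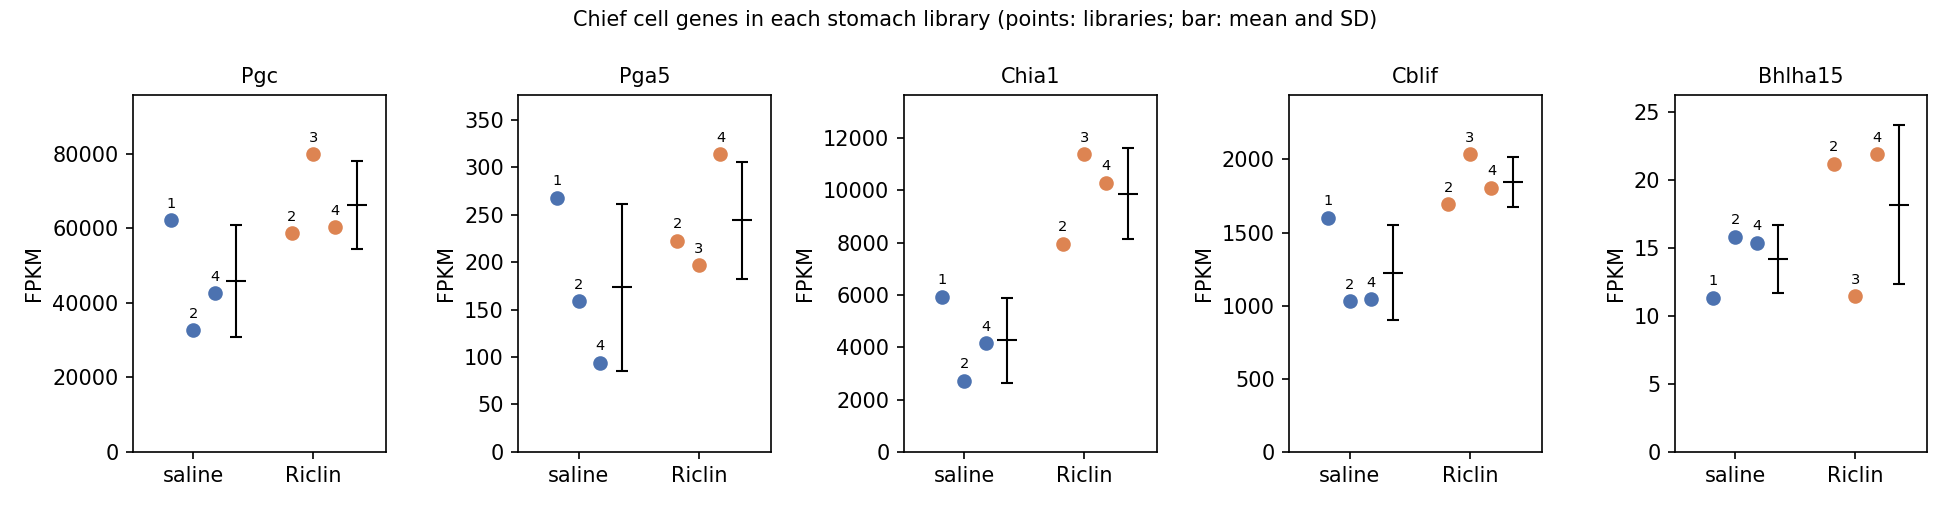
FPKM of 5 chief cell genes (y axis, linear from 0) in the 3 saline and 3 Riclin libraries, numbered by replicate, with the group mean and SD beside the points. The groups are separate for Chia1 and Cblif and overlap for Pgc, Pga5 and Bhlha15.

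Pgc encodes pepsinogen C, also called progastricsin, the main pepsin precursor of the adult mouse stomach. It measured 62152, 32607 and 42473 FPKM in saline replicates 1, 2 and 4, and 58622, 79742 and 60186 FPKM in Riclin replicates 2, 3 and 4. It had the highest level of any gene in 5 libraries and ranked 2 in saline replicate 2. Saline replicate 1 lay within the Riclin range and the other 2 saline libraries below it. Group means were 45744 ± 15042 FPKM (saline) and 66183 ± 11768 FPKM (Riclin; SD, n = 3 each), a log2 fold change of 0.57 (SE 0.568, 95% interval -0.75 to 1.89, limma adjusted p = 0.906). Without saline replicate 2 the log2 fold change was 0.35. The width of that interval came from the variance prior at very high levels: without an intensity trend in the prior, a setting chosen after the data were seen, the SE was 0.239.

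Because of its level, Pgc alone took a sizeable share of each library. Its share of reads was 8.60, 4.51 and 5.88% for saline replicates 1, 2 and 4, while Riclin replicates 2, 3 and 4 stood at 8.11, 11.0 and 8.33%. In Riclin replicate 3 its 95% Wilson interval ran from 11.03 to 11.05%, and such intervals cover counting error only.

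Pga5 encodes the pepsinogen A type precursor, which was far less abundant than Pgc. Its levels were 268, 159 and 93.7 FPKM in saline replicates 1, 2 and 4, and 222, 197 and 313 FPKM in Riclin replicates 2, 3 and 4. The groups overlapped, with saline replicate 1 above 2 of the 3 Riclin libraries. The log2 fold change was 0.59 (SE 0.365, 95% interval -0.26 to 1.44, limma adjusted p = 0.846). That value rested largely on single libraries, since it was 0.21 without saline replicate 4, the lowest library, and 0.40 without the highest, Riclin replicate 4. Leaving out saline replicate 1 gave 0.97. Relative to Pgc in the same library, Pga5 stood at 0.379 ± 0.140% (saline) and 0.382 ± 0.137% (Riclin; SD, n = 3 each).

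Chia1 encodes acidic mammalian chitinase, an acid-stable and pepsin-resistant enzyme that cleaves the chitin of insects and fungi. It measured 5928, 2712 and 4153 FPKM in saline replicates 1, 2 and 4, and 7960, 11369 and 10296 FPKM in Riclin replicates 2, 3 and 4. The lowest Riclin library lay above the highest saline library. The means were 4264 ± 1611 and 9875 ± 1743 FPKM (SD, n = 3 each), a log2 fold change of 1.27 (SE 0.378, 95% interval 0.39 to 2.15). Its unadjusted limma p of 0.0107 was the 167th smallest of 11738, and the limma adjusted p was 0.751. An exact two-sided permutation test gave p = 0.1, the smallest that 3 against 3 libraries can give. Without saline replicate 1 and Riclin replicate 3, the libraries low in acinar transcripts, the log2 fold change was 1.43.

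Cblif, gastric intrinsic factor, binds vitamin B12 so that the ileum can take it up, and in humans it comes from parietal cells. It measured 1603, 1030 and 1046 FPKM in saline replicates 1, 2 and 4, and 1695, 2034 and 1807 FPKM in Riclin replicates 2, 3 and 4. The groups did not overlap, though saline replicate 1 lay close under Riclin replicate 2. The log2 fold change was 0.62 (SE 0.245, 95% interval 0.048 to 1.19, unadjusted p = 0.0371, limma adjusted p = 0.806). Leaving out any single library other than saline replicate 1 brought its unadjusted limma p to between 0.0524 and 0.109. The spread was narrower in Riclin, with a coefficient of variation of 9.36% against 26.6% in saline, a difference that was not tested.

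Bhlha15 was the least abundant of the 5 genes and followed a different pattern. It measured 11.3, 15.8 and 15.4 FPKM in saline replicates 1, 2 and 4, and 21.2, 11.4 and 21.9 FPKM in Riclin replicates 2, 3 and 4. The groups overlapped, since Riclin replicate 3, the library highest in Pgc, Chia1 and Cblif, was among the lowest in Bhlha15. The log2 fold change was 0.30 (SE 0.247, 95% interval -0.28 to 0.87, limma adjusted p = 0.884). Leaving out Riclin replicate 3 gave 0.58. Leaving out saline replicate 1, Riclin replicate 2 or Riclin replicate 4 gave 0.15, 0.17 or 0.14.

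**Figure D2:**
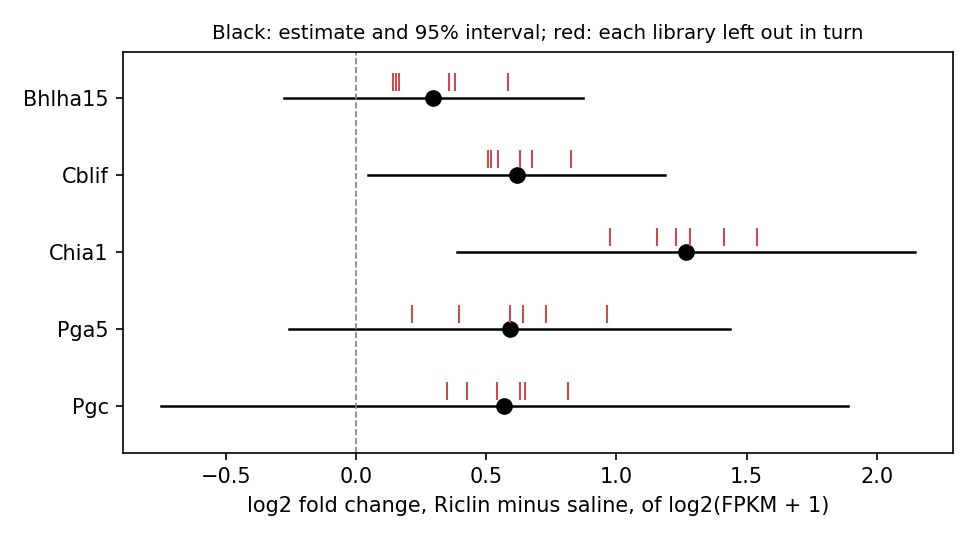
Log2 fold change of 5 members on the scale log2(FPKM + 1) (x axis), with the limma 95% interval in black and the values with each of the 6 libraries left out in turn in red. The intervals of Chia1 and Cblif lie above 0, those of Pgc, Pga5 and Bhlha15 span it, and every red mark is above 0.

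Lipf encodes gastric lipase, a chief cell enzyme of the human stomach. It was listed at 0 FPKM in 5 libraries and at 0.0808 FPKM in saline replicate 2, where 4 reads were recovered. In the 5 libraries with 0 reads, a floor of 3 reads allows a level of up to 0.0545 to 0.0706 FPKM. It did not pass the filter on low values (FPKM of at least 1 in at least 3 libraries), and no comparison of the groups was made for it.

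Not all of the 5 measurable members varied in step. Of their 10 pairs, 2 had a ratio of FPKM values whose groups did not overlap. Both of these involved Chia1, whose own level was already apart between groups. For the levels of single genes, 11.2% of all tested genes did not overlap in either direction, and no such share was computed for ratios. Relative to Pgc, Chia1 stood at 9.54, 8.32 and 9.78% in saline replicates 1, 2 and 4, and at 13.6, 14.3 and 17.1% in Riclin replicates 2, 3 and 4. Within each group this ratio varied less than either gene's level did, and the lowest Riclin value exceeded the highest saline value. The means were 9.21 ± 0.784% and 15.0 ± 1.87% (SD, n = 3 each), a difference of 0.70 on the log2 scale. The ratio of Chia1 to Cblif was 3.70, 2.63 and 3.97 in the saline libraries and 4.70, 5.59 and 5.70 in the Riclin libraries. For both ratios the exact two-sided permutation p was 0.1, the smallest possible with 3 against 3, and 0.5 when adjusted over the 10 pairs. Such ratios do not depend on how the libraries are scaled. They were examined after the levels had been seen.

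Cblif followed Pgc closely, in contrast to Chia1. Cblif stood at 2.58, 3.16 and 2.46% of Pgc in saline replicates 1, 2 and 4, and at 2.89, 2.55 and 3.00% in Riclin replicates 2, 3 and 4. The groups overlapped, and the means of 2.73 ± 0.372% and 2.81 ± 0.235% (SD, n = 3 each) differed by less than the spread (exact two-sided permutation p = 0.9). Bhlha15 had the lowest ratio to Pgc in saline replicate 1 (0.0182%) and Riclin replicate 3 (0.0143%), against 0.0362 to 0.0486% in the other 4 libraries.

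**Figure D3:**
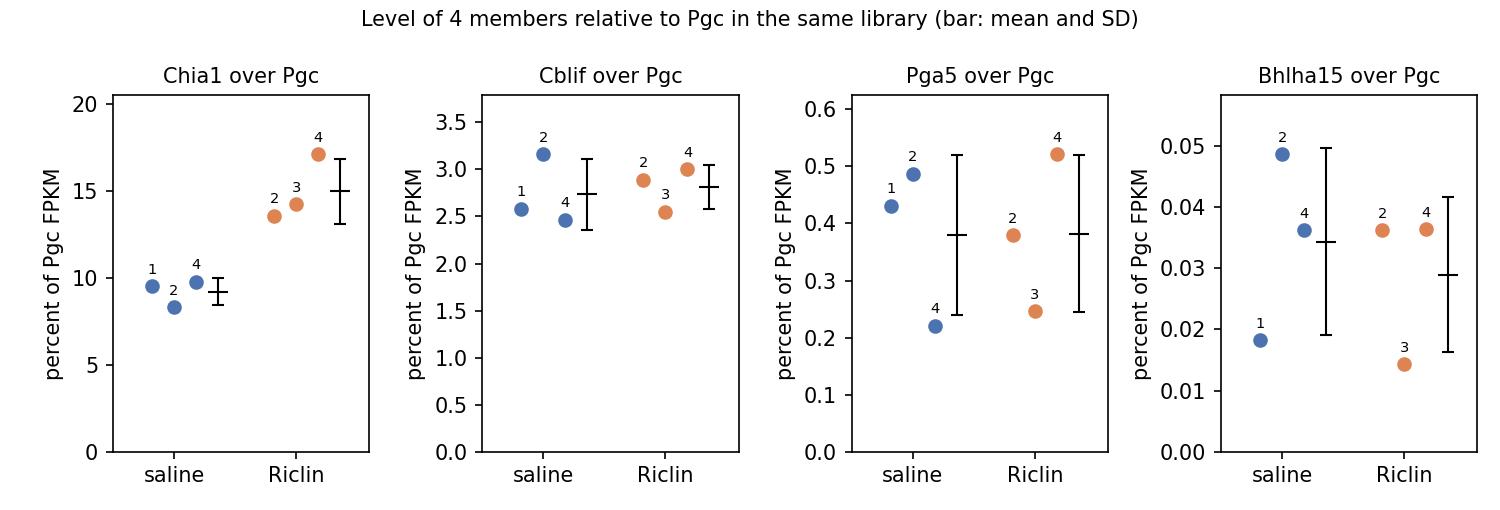
FPKM of Chia1, Cblif, Pga5 and Bhlha15 as a percentage of Pgc FPKM in the same library (y axis, linear from 0), with group mean and SD. The 3 Riclin libraries lie above the 3 saline libraries for Chia1, at 13.6% and more against 9.78% and less, and the groups overlap for the other 3 genes.

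Levels of other gastric cell markers are given for the same libraries, and none of these genes passed the adjusted threshold in limma. The 9 parietal markers summed to between 3340 and 4922 FPKM in saline and between 4466 and 5993 in Riclin, and these sums overlapped. By gene, 9 of 9 were higher in mean log2 level, against 61.3% of all tested genes. Groups did not overlap, with Riclin higher, in 5 of the 9, against 8.14% of all tested genes. An unadjusted limma p under 0.05 was found for 5 of the 9, against 4.07% of all tested genes in that direction. The 5 mucous neck markers summed to between 5141 and 13481 FPKM in saline and between 2322 and 6200 in Riclin, which overlap. The 5 surface mucous markers summed to between 61553 and 104993 FPKM in saline and between 58117 and 82898 in Riclin, which overlap too. In mean log2 level, 3 of 4 tested mucous neck markers and 5 of 5 surface mucous markers were lower, against 4543 of all 11738 tested genes. In each of these lists 1 gene was lower without overlap. These were the mucous neck marker Gkn3, with means of 1155 (saline) and 452 FPKM (Riclin), and the surface marker Krt20, with 223 and 126 FPKM. Their unadjusted limma p was 0.0219 and 0.0378. Of all 11738 tested genes, 355 were lower without overlap and 215 lower at an unadjusted p under 0.05. The 3 antral markers, Gast, Pdx1 and Nkx6-3, summed to between 699 and 1068 FPKM in saline and between 7.76 and 433 in Riclin, so that the groups of the sum did not overlap. Gast held most of the saline sums, with a saline mean of 885 FPKM against 7.38 for Pdx1 and 20.7 for Nkx6-3. By gene, 3 of 3 were lower in mean log2 level. Gast and Pdx1 were lower without overlap, while the groups of Nkx6-3 overlapped. Forestomach markers summed to between 89.0 and 421 FPKM in saline and between 378 and 506 in Riclin, which overlap as well. By gene, 8 of 8 tested forestomach markers were higher in mean log2 level, against 61.3% of all tested genes. Of these 8, 2 were higher without overlap, against 8.14%, and 4 had an unadjusted limma p under 0.05, against 4.07%. Their median log2 fold change was 0.87, against 0.59 for the 5 tested members. The part of these marker levels in the members' values was not tested.

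Members were also set against single genes of other gastric cells. The ratio of Chia1 to Atp4a, the catalytic subunit of the proton pump, was 3.41, 1.79 and 3.26 in saline replicates 1, 2 and 4, against 4.84, 5.06 and 4.72 in Riclin replicates 2, 3 and 4. The Riclin libraries lay close together and above all saline libraries. Pgc relative to Atp4a overlapped between groups, with means of 30.2 ± 7.62 (saline) and 32.9 ± 4.63 (Riclin; SD, n = 3 each), as did Cblif, with 0.807 ± 0.122 and 0.922 ± 0.103. Relative to Atp4b, the other proton pump subunit, the Cblif groups were just apart, with a lowest Riclin value of 0.590 and a highest saline value of 0.589. Against both subunits the groups of Pga5 and Bhlha15 overlapped. Their Riclin mean ratios were 1.10 and 0.96 times those of saline for Atp4a, and 1.18 and 1.01 times for Atp4b. Relative to Gkn1, a surface mucous cell gene, Pgc, Pga5 and Cblif were higher in every Riclin library than in every saline library. Their Riclin mean ratios were 1.69, 1.80 and 1.78 times those of saline. Chia1 was likewise apart at 2.72 times, while Bhlha15 overlapped at 1.45 times. Relative to Muc6, a mucous neck cell gene, the groups were apart for Chia1 (2.83 times). They overlapped for Pgc, Pga5, Cblif and Bhlha15 (1.79, 1.64, 1.86 and 1.70 times). Gkn1 and Muc6 themselves had lower means in Riclin, with overlapping groups. Gkn1 stood at 17812 (saline) and 14945 FPKM (Riclin), and Muc6 at 41.7 and 32.8 FPKM. The part of these lower levels in the ratios was not tested. Atp4a, Atp4b, Gkn1 and Muc6 were picked for this after the levels had been seen. No share over all tested genes was computed for such ratios. The levels of Pgc and Pga5 themselves overlapped between groups.

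Bhlha15 is also a gene of pancreatic acinar cells, and its 2 lowest libraries were the 2 with the least acinar RNA. In saline replicate 1 and Riclin replicate 3 Bhlha15 stood at 11.3 and 11.4 FPKM, while the acinar markers summed to 35189 and 165 FPKM. The other 4 libraries had Bhlha15 at 15.4 to 21.9 FPKM and acinar sums of 92360 to 144697 FPKM. In Riclin replicate 3, where 1600 reads of Bhlha15 were recovered, 6 of the 22 acinar markers were listed at 0, and the other 16 lay between 0.0167 and 64.1 FPKM. Without saline replicate 1 and Riclin replicate 3 the log2 fold change of Bhlha15 was 0.44. The 8 plasma cell markers summed to between 82.8 and 93.7 FPKM in saline and 79.0 to 84.4 in Riclin, of which Sdc1 alone had means of 58.7 and 63.2 FPKM. Jchain, the joining chain of secreted antibodies, was lower in every Riclin library, at 15.4 ± 4.89 FPKM (saline) and 6.21 ± 1.92 FPKM (Riclin; SD, n = 3 each, limma unadjusted p = 0.00206, adjusted p = 0.588). Prdm1 and Pou2af1, which did not pass the filter on low values, were separated in the same direction. Derl3, at means of 10.6 (saline) and 9.54 FPKM (Riclin), overlapped, as did Mzb1, Tnfrsf17, Irf4 and Sdc1. Of all 11738 tested genes, 355 were lower in Riclin without overlap. The part of either cell type in the Bhlha15 values was not tested.

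**Figure D4:**
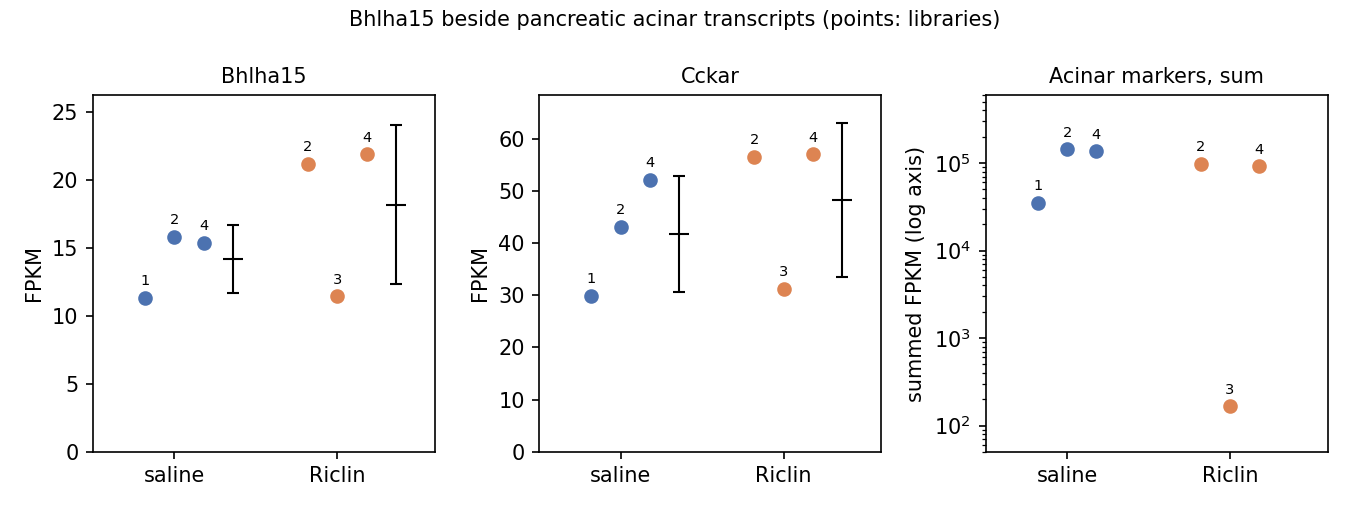
Bhlha15 and Cckar in FPKM (linear axes from 0, with group mean and SD) and the summed FPKM of 22 pancreatic acinar markers (log axis) in each library, numbered by replicate. Saline replicate 1 and Riclin replicate 3 are lowest in all 3 panels, with Bhlha15 at 11.3 and 11.4 FPKM and acinar sums of 35189 and 165 FPKM.

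The genes closest to each member across the 6 libraries were found from the root mean square difference of log2(FPKM + 1) values centred on each gene's mean, among 4295 genes. For Pgc these were Pla2g1b, a secreted phospholipase (0.082), and Furin, a proprotein convertase (0.090), where the median gene differed by 0.38. Pla2g1b measured 17313, 7925 and 11788 FPKM in saline replicates 1, 2 and 4, against 17029, 21654 and 17035 in Riclin replicates 2, 3 and 4. For Cblif they were the hormone gene Sst (0.082) and the potassium channel gene Kcnj16 (0.11), and Pgc itself lay at 0.13. For Chia1 the closest were B4galnt3, a glycosyltransferase (0.26), and Irf9, a subunit of the interferon-activated complex ISGF3 (0.29), both nearer to it than Pgc at 0.37. B4galnt3 measured 15.9, 10.8 and 10.9 FPKM in saline and 23.2, 32.6 and 24.1 in Riclin, in the same order of replicates. For Pga5 they were C1ra, a complement protease (0.24), and Tfrc, the transferrin receptor (0.26).

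For Bhlha15 the closest genes were C4b, a complement component (0.10), and Cckar (0.13), the cholecystokinin receptor found on chief and acinar cells. Cckar measured 29.9, 43.1 and 52.1 FPKM in saline replicates 1, 2 and 4, against 56.5, 31.3 and 56.9 in Riclin replicates 2, 3 and 4. Like Bhlha15 it was lowest in saline replicate 1 and Riclin replicate 3, and its log2 fold change of 0.19 (SE 0.277) was -0.025 without saline replicate 1. With so few libraries, such likeness is a description only.

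Genes that act with the members did not pass the adjusted threshold either, and their medians lay near that of all tested genes. Of 13 genes of zymogen granule traffic and exocytosis, 8 were higher in Riclin and 5 lower, where 61.3% of all tested genes were higher. The median log2 fold change of the list was 0.0087. An unadjusted limma p under 0.05 was found for 1 gene of the 13, against 5.9% of all tested genes in either direction. That gene was Syt7, a calcium sensor of granule fusion, which averaged 2.49 ± 0.502 FPKM (saline) and 3.91 ± 0.458 FPKM (Riclin; SD, n = 3 each, limma unadjusted p = 0.00697). The granule GTPases Rab27a and Rab27b were lower, with log2 fold changes of -0.30 (SE 0.152) and -0.23 (SE 0.122) and overlapping groups, and without Riclin replicate 4 these were -0.19 and -0.15. Of 9 transcription and stress regulators of secretory cells, 7 were higher, against 61.3% of all tested genes, and 2 lower, with a median of 0.052. Creb3l2, a membrane-bound factor of the secretory pathway, measured 5.45 ± 1.31 and 7.51 ± 0.346 FPKM and had the 1 unadjusted p under 0.05 (SD, n = 3 each, limma unadjusted p = 0.0239). Its log2 fold change of 0.42 was 0.28 without saline replicate 2. Ern1 and Atf4, of the unfolded protein response, had log2 fold changes of 0.12 each, and that of Atf4 was 0.043 without Riclin replicate 3.

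Relatives of the enzymes showed no common direction, where 61.3% of all tested genes were higher and 5.9% had an unadjusted limma p under 0.05. Among 6 tested aspartic proteases other than the pepsinogens, 3 were higher and 3 lower, with 0 at an unadjusted p under 0.05 by limma. Cym, the milk-clotting enzyme chymosin, measured 19.1, 87.0 and 34.2 FPKM in saline replicates 1, 2 and 4 and 1094, 40.9 and 31.4 FPKM in Riclin replicates 2, 3 and 4. A single library, Riclin replicate 2, was high, and the log2 fold change of 1.53 (SE 1.27) was -0.11 without it. Without Riclin replicate 4 it was 2.43. The endosomal proteases Bace2 and Bace1 had log2 fold changes of -0.30 and 0.11, which were -0.19 and 0.067 without saline replicate 1, and Bace1 was at 0.070 without Riclin replicate 2. Of 4 tested chitinase relatives, 3 were higher and 1 lower, with a median of 0.073. Chit1, the macrophage chitinase, Chid1 and the lysosomal chitobiase Ctbs had log2 fold changes of 0.28, 0.094 and -0.079, against 1.27 for Chia1. Chit1 was at 0.13 without saline replicate 1. Without Riclin replicate 4 Chid1 was at 0.048 and Ctbs turned to 0.011. Of 5 tested acid lipases, 3 were higher and 2 lower, with a median of 0.21, against 0.040 over all tested genes. The lysosomal lipase Lipa measured 28.7 ± 6.57 and 19.9 ± 6.35 FPKM (SD, n = 3 each), and the epidermal lipases Lipm and Lipn each had a log2 fold change of 0.63 at Riclin means of 1.94 and 1.90 FPKM, which were 0.28 and 0.25 without saline replicate 1.

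Of 11 tested genes of vitamin B12 uptake and use, 9 were higher in Riclin, against 61.3% of all tested genes, and 2 lower. Their median log2 fold change was 0.092. Groups did not overlap, with Riclin higher, in 3 of the 11, against 8.14% of all tested genes. An unadjusted limma p under 0.05 was found for 1, against 4.07% of all tested genes in that direction. Cd320, the cellular receptor for transcobalamin-bound B12, measured 11.8 ± 0.833 and 14.9 ± 1.99 FPKM (SD, n = 3 each, limma unadjusted p = 0.0314), and its groups did not overlap. The lysosomal and plasma membrane B12 transporters Abcd4 and Abcc1 stood at 0.23 (SE 0.0981) and 0.14 (SE 0.0864) on the log2 fold change scale. Their groups did not overlap either. The ileal receptor genes Cubn and Amn, chosen after their values were seen, stayed under 0.1 FPKM in every library. Of 8 receptors that act on pepsinogen release, 4 were higher and 4 lower, with a median of 0.078. An unadjusted limma p under 0.05 was found for 1 of them, against 5.9% of all tested genes in either direction. Groups did not overlap, with Riclin higher, in 2 of the 8, Sstr2 and Chrm3, against 8.14% of all tested genes. Sstr2, the inhibitory somatostatin receptor, measured 5.06 ± 0.449 and 6.21 ± 0.468 FPKM (SD, n = 3 each, limma unadjusted p = 0.0427). The secretin receptor Sctr had a log2 fold change of 0.33 (SE 0.188) and the muscarinic receptor Chrm3 one of 0.16 (SE 0.0987). Sctr was at 0.11 without saline replicate 4, and Chrm3 at 0.11 without saline replicate 2.

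**Figure D5:**
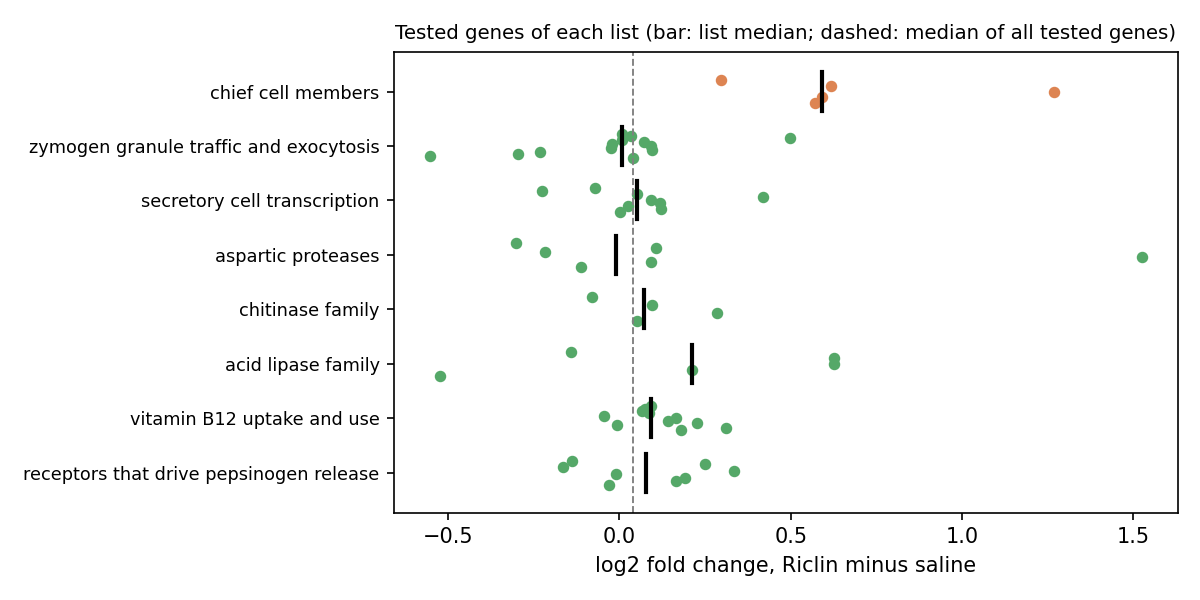
Log2 fold change, Riclin minus saline (x axis), of each tested gene in the members and in 7 related lists, with list medians as bars and the median of all tested genes, 0.040, as a dashed line. The members' median is 0.59, and the highest point among the related lists is Cym at 1.53.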

How the data were processed

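The authors deposited 1 table of FPKM values for the 6 libraries. Per the labels' protocols, libraries were made with a VAHTS Universal V6 kit from TRIzol-extracted RNA. The submitters' processing notes name mm10 and Bowtie2. Not given in the sources used here are annotation, counting tool and use of strand.

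The 11738 genes that reached an FPKM of 1 in 3 or more libraries were fitted with limma 3.58.1 (R 4.3.3, intensity trend, two-sided) on log2(FPKM + 1), which understates changes of low genes, with Benjamini-Hochberg adjustment at 0.05. P-values measure the spread between these libraries, which may be technical. Reads were recovered from FPKM ratios to within a relative tolerance of 1e-09 and to whole gene lengths. The steps were tested on simulated data. Members and lists were chosen with earlier results of these data known. Named are the members, the 3 smallest p of each related list and the 2 genes closest to each member (mean FPKM of at least 10, without unnamed gene models, immunoglobulin, T cell receptor, mitochondrial and small RNA symbols). Figures used matplotlib 3.10.9. Other scalings, filters, priors and left-out libraries were tried.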

Additional observations from a re-analysis of the deposited data

How the results depend on the processing

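Under 17 alternatives, 0 of the 5 tested members passed the adjusted threshold in limma, and each kept a positive log2 fold change. These values ran from 0.98 to 1.54 for Chia1, 0.51 to 0.83 for Cblif, 0.35 to 0.82 for Pgc, 0.21 to 1.11 for Pga5 and 0.14 to 0.58 for Bhlha15. The unadjusted p of Chia1 was under 0.05 in 16 of the 17 and 0.159 with no filter, and that of Cblif in 11. With the limma robust prior 2 of all genes passed, neither a member, and with single libraries left out 0 to 1 passed. With single libraries left out, directions turned for Cckar (-0.025 without saline replicate 1, up to 0.47 without Riclin replicate 3), Ctbs (0.011 without Riclin replicate 4, down to -0.13 without Riclin replicate 3) and Cym (-0.11 without Riclin replicate 2, up to 2.43 without Riclin replicate 4). Replicate numbers 2 and 4 occur in both groups, but no label says that they pair samples, and deviations of same-numbered libraries correlated across genes at 0.22 and 0.011. With the replicate block, which compares the same 4 libraries as leaving out saline replicate 1 and Riclin replicate 3, 0 genes and 0 members passed, and 4 of the 5 members had an unadjusted p under 0.05, against 2 without the block. The members' median was then 0.75, with Pga5 at 1.11, Chia1 at 1.43 and Bhlha15 at 0.44. The fit with no intensity trend was chosen after seeing the data and also gave 0 genes (692 at an unadjusted p under 0.05, against 693 with the trend). Limma's voom on recovered reads gave 0 genes as well (736). Depth limits Lipf alone among the members.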
